A study of Mus musculus with 6 samples.

Results

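Untreated mouse F9 cells with a knock-down of Ctbp2 were set directly against untreated F9 cells with a knock-down of Rxr, so that the difference does not pass through the shared control line. F9 is a mouse teratocarcinoma line whose cells resemble those of the early embryo and which retinoic acid (RA) converts towards primitive endoderm. The samples shCtbp2_UT and shRxr_UT are 2 of the 6 libraries, and the values are RNA sequencing levels per gene. Of 25904 genes in the deposited table, 12332 had a mean of at least 20 normalised reads over the 6 libraries and were kept, where a normalised read is 1 read per 10000000 counted in genes. The last gene inside this limit was Trim21, with 19.02 normalised reads in shCtbp2_UT and 7.53 in shRxr_UT, and the first outside was Vstm2a, with 24.0 in shCtbp2_UT and 26.8 in shRxr_UT.

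The groups were shCtbp2 cells untreated, shRxr cells untreated, shCtbp2 cells with RA, shRxr cells with RA, and shGFP control cells with RA and untreated, each with 1 library. Untreated cells (UT) and cells given 1 µM all-trans RA during the last 48 hours before harvest shared a medium with 8% heat-inactivated, charcoal-stripped calf serum, and all lines, control included, carried a short hairpin. The labels do not say how many hairpins or clones a line stands for, nor which Rxr gene the shRxr hairpin targets, so a difference between the libraries cannot be told apart from a difference between the hairpins or clones. With 1 library per group the untreated pair has no replicate check and no test. Differences are described by size, with 95% exact binomial (Clopper-Pearson) intervals on folds, given in brackets after each fold, that cover counting error only.

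Ctbp2 is a corepressor without a DNA-binding domain of its own: factors such as Zeb1 and Zeb2, which bind E-box letters of the form CACCTG, bring it and its histone-modifying partners to genes, epithelial genes among them. The RXR proteins are nuclear receptors that pair with the RA receptors and with several others, and the pairs bind repeats of letters close to AGGTCA. Without RA, a bound RAR-RXR pair can hold a target gene low through corepressors, and RA turns the pair into an activator. In F9 cells RA-bound pairs drive the change into primitive endoderm.

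The depth was 12089782 reads in shCtbp2_UT and 11947894 in shRxr_UT, so 3 reads, the smallest count read as a level here, amount to at most 3.01 normalised reads in a library. Both untreated lines kept the markers of undifferentiated F9 cells: Pou5f1 stood at 18524 normalised reads in shCtbp2_UT and 18536 in shRxr_UT, Sox2 at 4616 in shCtbp2_UT and 4316 in shRxr_UT, and Nanog at 7231 in shCtbp2_UT against 8245 in shRxr_UT. Markers of other cell types were low or uneven. The summed level of 11 fibroblast genes was 842 in shCtbp2_UT and 1128 in shRxr_UT, with Col3a1, Dcn, Postn and Fap at 0 in both libraries. That of 10 blood and immune genes was 113 in shCtbp2_UT and 156 in shRxr_UT. That of 17 visceral endoderm genes was 712 in shCtbp2_UT and 743 in shRxr_UT, with Afp, Ttr, Apoa2, Apoa4, Cer1 and Spink3 at 0 in both. Of the 5 kept, 1 was at least 2-fold higher in shCtbp2_UT and 0 were lower, beside 1.76% and 3.59% of all genes kept. Their median log2 difference, shCtbp2_UT minus shRxr_UT, was 0.61. Fewer cells of a type and less RNA per cell cannot be told apart in such bulk samples, and the part of these markers in the results was not tested.

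Ctbp2 and Rxra separated the lines in the directions of the labels. Ctbp2 (chr7:140179246-140316037, build mm9, as are the gene positions below) had 210.1 normalised reads in shCtbp2_UT and 1632 in shRxr_UT, beside 1811 in shGFP_UT. It was 7.77-fold lower (6.81 to 8.89) in shCtbp2_UT, and shRxr_UT lay near the control. Its paralog Ctbp1 had 1127 in shCtbp2_UT and 1192 in shRxr_UT, and the interval of its fold holds 1: 1.06-fold lower (0.982 to 1.14). Rxra (chr2:27531960-27618477), the RXR gene that F9 cells use in the RA response, had 372 in shCtbp2_UT and 73.7 in shRxr_UT, beside 520.3 in shGFP_UT, and was 5.05-fold higher (4.01 to 6.43). Rxrb had 658 in shCtbp2_UT and 638 in shRxr_UT, again with an interval that holds 1: 1.03-fold higher (0.932 to 1.14). Rxrg, at 6.62 in shCtbp2_UT and 10.9 in shRxr_UT, was under the limit of 20 on the mean.

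**Figure D1:**
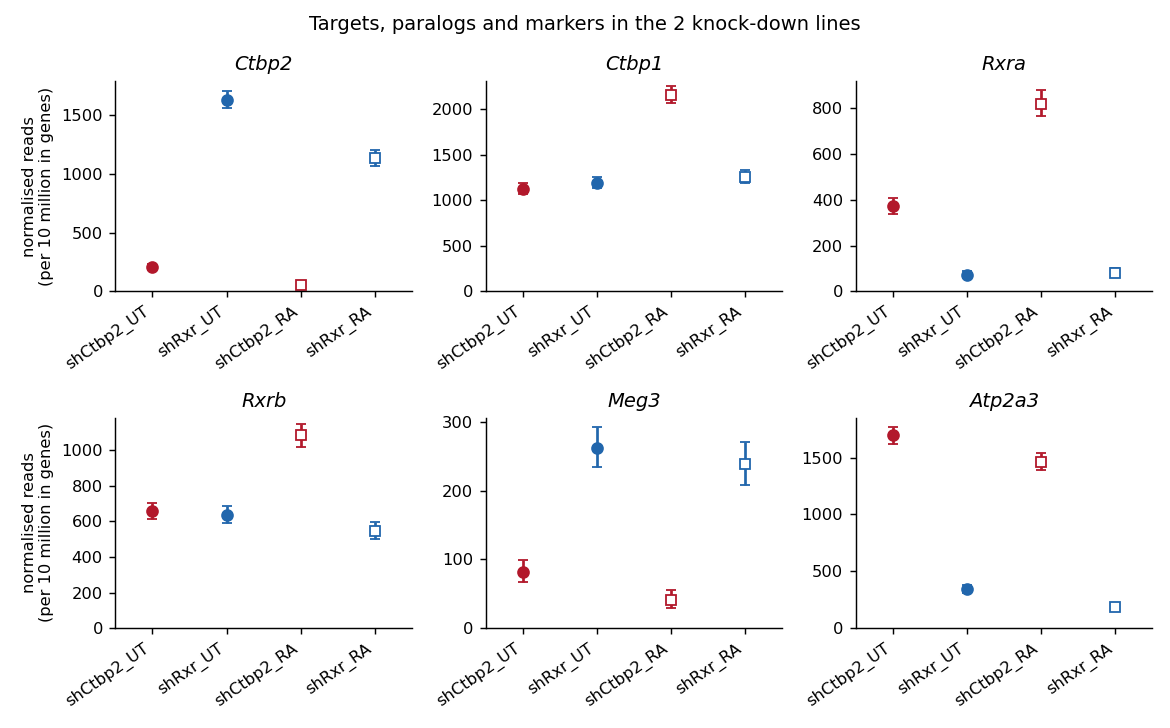
Level in normalised reads (linear axis from 0) of Ctbp2, Ctbp1, Rxra, Rxrb, Meg3 and Atp2a3 in the 4 knock-down libraries, filled circles untreated and open squares with RA, red for shCtbp2 and blue for shRxr; bars are 95% exact Poisson intervals, counting error only. In the untreated libraries Ctbp2 sits at 210.1 in shCtbp2 against 1632 in shRxr, and Rxra at 372 in shCtbp2 against 73.7 in shRxr.

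Over all genes the untreated lines were close. The median log2 difference of shCtbp2_UT minus shRxr_UT, on log2(normalised reads + 10), was -0.03. At least a 2-fold difference on that scale was seen in 217 genes that were higher in shCtbp2_UT (1.76% of the genes kept) and in 443 that were lower (3.59%), so 660 genes (5.35%) differed by that size in either direction. This scale understates the change of genes with few reads. Of the 217 higher genes 212 are protein coding and 2 are lincRNAs, and of the 443 lower ones 431 are protein coding and 6 are lincRNAs. The shares of these types over all genes kept were not counted, so nothing about gene type can be read from these counts. Base composition moved little with the untreated difference: its rank correlation across genes with GC content was -0.15, and with length -0.05 (genes are not independent replicates). The median GC content was 51.7% in the higher and 54.2% in the lower genes, against 50.1% in all genes kept.

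**Figure D2:**
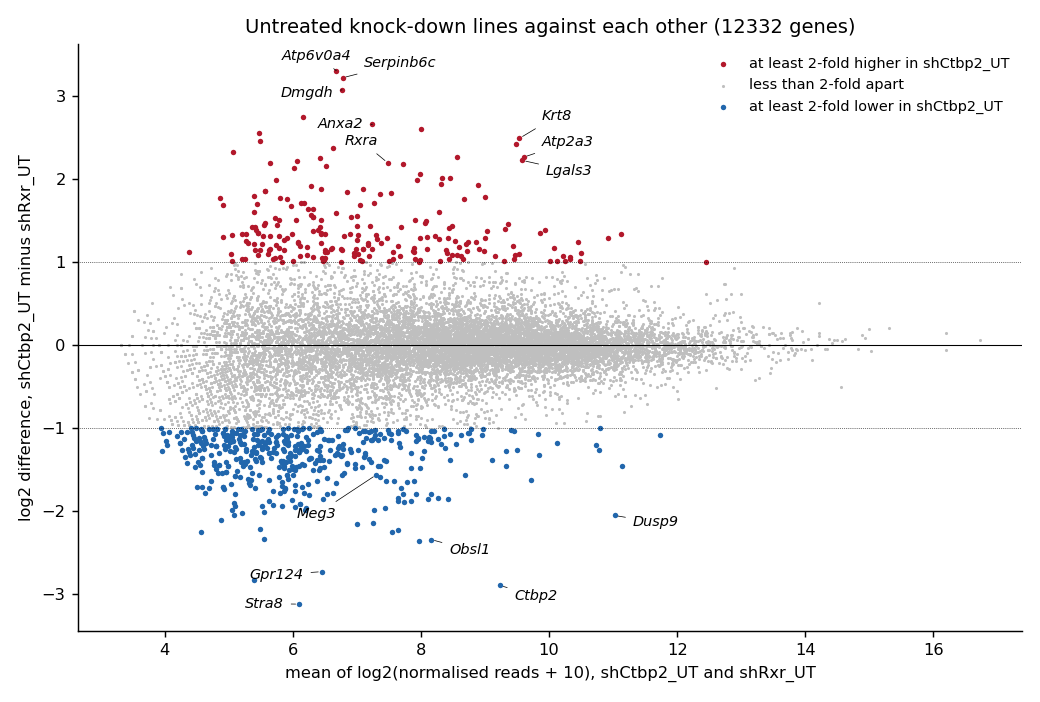
Log2 difference of shCtbp2_UT minus shRxr_UT on log2(normalised reads + 10), against the mean of the 2 log2 values, one point per gene for the 12332 genes kept, with dotted lines at 2-fold. The 217 higher and 443 lower genes are coloured; Rxra and Atp2a3 lie above the lines, Ctbp2, Meg3 and Stra8 below.

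The RefSeq promoters of 5 genes with large differences are shown so that their letters can be read beside the motifs named above. These are the motif of RXR pairs and the E-box of Zeb1 and Zeb2, which bring Ctbp2 to genes but are named by no hairpin label. The 5 genes are Stra8, the gene furthest lower in shCtbp2_UT, and Atp6v0a4, Krt8, Lgals3 and Dmgdh among those furthest higher. They were chosen after their values and letters were seen. Each run covers 250 bases before to 50 after a RefSeq start, 5′ to 3′ on the gene's strand, on build GRCm38.p6: Stra8 at chr6:34920698-34920997 (plus), Atp6v0a4 at chr6:38124537-38124836 (minus), Krt8 at chr15:102004293-102004592 (minus), Lgals3 at chr14:47373610-47373909 (plus) and Dmgdh at chr13:93674186-93674485 (plus). Capitals mark AGGTCA on either strand, its near form AGTTCA on either strand, and the E-box CACCTG on either strand.
Stra8: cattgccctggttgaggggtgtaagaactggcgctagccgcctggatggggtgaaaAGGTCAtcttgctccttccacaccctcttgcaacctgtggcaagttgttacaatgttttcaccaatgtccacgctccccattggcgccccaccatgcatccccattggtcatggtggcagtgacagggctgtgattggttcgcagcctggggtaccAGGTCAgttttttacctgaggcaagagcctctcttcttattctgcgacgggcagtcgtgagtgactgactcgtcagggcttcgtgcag
Atp6v0a4: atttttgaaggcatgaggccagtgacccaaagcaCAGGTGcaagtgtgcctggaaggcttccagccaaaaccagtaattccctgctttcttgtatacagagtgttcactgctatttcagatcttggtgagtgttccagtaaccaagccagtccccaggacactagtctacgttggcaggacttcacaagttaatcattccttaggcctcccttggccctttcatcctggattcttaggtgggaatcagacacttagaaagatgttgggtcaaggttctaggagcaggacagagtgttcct
Krt8: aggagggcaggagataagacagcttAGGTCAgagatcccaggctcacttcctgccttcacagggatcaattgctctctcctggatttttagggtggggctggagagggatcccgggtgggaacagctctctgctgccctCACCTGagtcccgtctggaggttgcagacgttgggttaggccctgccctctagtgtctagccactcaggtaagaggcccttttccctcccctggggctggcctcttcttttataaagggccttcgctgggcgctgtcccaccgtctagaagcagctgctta
Lgals3: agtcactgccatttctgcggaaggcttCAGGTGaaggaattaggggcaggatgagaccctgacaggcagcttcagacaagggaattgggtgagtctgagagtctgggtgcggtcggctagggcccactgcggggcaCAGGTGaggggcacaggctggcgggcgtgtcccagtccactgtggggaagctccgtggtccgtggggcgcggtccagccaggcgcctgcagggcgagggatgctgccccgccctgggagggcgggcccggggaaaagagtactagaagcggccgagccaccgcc
Dmgdh: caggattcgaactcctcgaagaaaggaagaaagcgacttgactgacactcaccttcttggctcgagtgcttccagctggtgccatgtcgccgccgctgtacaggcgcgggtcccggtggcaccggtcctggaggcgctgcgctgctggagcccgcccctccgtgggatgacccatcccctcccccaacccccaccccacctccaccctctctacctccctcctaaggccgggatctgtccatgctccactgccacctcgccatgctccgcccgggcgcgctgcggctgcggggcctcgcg

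The Stra8 window holds 2 AGGTCA matches, which begin 194 and 38 bases before the start. Atp6v0a4 holds 1 CACCTG match on the reverse strand 216 bases before its start, Lgals3 2 on the reverse strand at 223 and 114 bases, and Krt8 1 on the forward strand at 111 bases with an AGGTCA match at 225. The Dmgdh window holds none of the 3 motifs. Direction and motif did not go together throughout: the windows of the higher genes Serpinb6c, Anxa2 and Atp2a3 hold no CACCTG, and those of the lower genes Col9a2 and Obsl1 hold 1 each. Over the genes as groups, CACCTG on either strand was in 25.9% of 220 windows of the higher genes, 21.1% of 398 windows of the lower ones, 18.2% of 11203 windows of genes kept and 20.2% of all 32851 windows. AGGTCA was in 13.6% of windows of the higher and 9.30% of the lower genes, against 11.9% of genes kept and 16.3% of all. AGTTCA was in 10.9% of the higher and 7.79% of the lower genes' windows, against 9.46% and 14.0%. The 3 motifs do not contain one another, a match is not a binding site, and 150 of the higher and 303 of the lower genes had a window.

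Among the genes furthest higher in shCtbp2_UT, Atp6v0a4 (chr6:37998483-38074586), a subunit of the proton-pumping vacuolar ATPase, had 312 normalised reads in shCtbp2_UT and 22.6 in shRxr_UT, and was 13.8-fold higher (9.33 to 21.2). In shGFP_UT it had 49.1. Serpinb6c, of the serine protease inhibitor family, had 324 in shCtbp2_UT and 25.9 in shRxr_UT (12.5-fold higher, 8.66 to 18.6); it belongs to a family of close copies whose reads the counting could split. Atp2a3 (chr11:72774671-72806546), the SERCA3 pump that moves calcium into the endoplasmic reticulum, had 1695 in shCtbp2_UT and 346 in shRxr_UT, was 4.90-fold higher (4.41 to 5.46), and had 292 in shGFP_UT. For Atp2a3 the shCtbp2 library was the one apart from both others.

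Dmgdh, the mitochondrial dimethylglycine dehydrogenase of choline breakdown, had 306 in shCtbp2_UT and 27.6 in shRxr_UT (11.1-fold higher, 7.75 to 16.3). Its neighbour Bhmt2, a methyltransferase of methionine metabolism that starts 131 bases away, had 134 in shCtbp2_UT and 20.9 in shRxr_UT (6.40-fold higher, 4.19 to 10.2). Among 23 genes of choline, serine and one-carbon metabolism these were the 2 that were higher, 0 were lower, and the list's median difference was -0.05. Over all genes kept 1.76% were higher and 3.59% lower. The cytochrome P450 enzyme Cyp2s1 stood at 1648 in shCtbp2_UT and 299.6 in shRxr_UT (5.50-fold higher, 4.91 to 6.17), and the glutathione peroxidase Gpx2 at 216 in shCtbp2_UT and 33.5 in shRxr_UT (6.45-fold higher, 4.61 to 9.24). The calpain protease Capn5, the kallikrein protease Klk11, the membrane-binding annexin Anxa2 and the membrane protein Emp2 were between 5.02 and 7.36-fold higher.

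Several epithelial genes were higher in shCtbp2_UT. Of 37 keratin and epithelial junction genes 32 were kept, 8 were at least 2-fold higher, 0 were lower, 27 had a positive difference, and the median was 0.42 beside -0.03 for all genes. The shares over all genes kept were 1.76% higher and 3.59% lower. Krt8, a keratin of simple epithelia, had 1751 in shCtbp2_UT and 304 in shRxr_UT (5.76-fold higher, 5.15 to 6.46), with 299.6 in shGFP_UT. Krt8 is also in the list of parietal endoderm genes, and it was higher with RA in the control, at 922 in shGFP_RA. Lgals3, the galectin-3 gene, had 1645 in shCtbp2_UT and 345 in shRxr_UT (4.77-fold higher, 4.29 to 5.32), with 486 in shGFP_UT. Esrp1, which sets epithelial splicing, had 438 in shCtbp2_UT and 88.7 in shRxr_UT (4.94-fold higher, 4.004 to 6.15), with 176 in shGFP_UT. For Krt8, Lgals3 and Esrp1 the control library lay nearer to shRxr_UT than to shCtbp2_UT. The other 5 were Krt17, the splicing factor Esrp2, the small GTPase Rab25, the desmosome gene Dsp and the surface protein Cd24a. With RA, Dsp and Cd24a no longer differed in that direction: Dsp had 882 in shCtbp2_RA and 964 in shRxr_RA, and Cd24a 655 in shCtbp2_RA and 754 in shRxr_RA. Of 9 mesenchymal genes kept, Thy1 alone was past 2-fold, at 131 in shCtbp2_UT and 35.2 in shRxr_UT, 5 of the 9 had a positive difference, and the median was 0.42, or 0.54 with a pseudocount of 1 and 0.19 with one of 50, beside 0.48 and 0.28 for the epithelial list.

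The gene furthest lower in shCtbp2_UT, Stra8 (chr6:34870163-34889342), which RA induces in germ cells and in F9 cells, had 13.2 normalised reads in shCtbp2_UT and 193 in shRxr_UT. It was 14.5-fold lower (8.77 to 25.9), and shGFP_UT had 18.5, so the shRxr library was the one apart. With RA the lines met: 4587 in shCtbp2_RA, 4259 in shRxr_RA and 6428 in shGFP_RA. Over all genes kept 3.59% were at least 2-fold lower and 1.76% higher. Of 18 RA target genes 15 were kept, 6 were at least 2-fold lower in shCtbp2_UT, 0 were higher, and the median difference was -0.39, or -0.77 with a pseudocount of 1 and -0.17 with one of 50. Beside Stra8 these included the transglutaminase Tgm2, at 19.9 in shCtbp2_UT and 92.9 in shRxr_UT, the homeobox genes Cdx1 and Gbx2, and the forkhead gene Foxa1. Cdx1 had 14.1 in shCtbp2_UT, 60.3 in shRxr_UT and 12.9 in shGFP_UT, and Foxa1 had 4.96 in shCtbp2_UT, 21.8 in shRxr_UT and 4.83 in shGFP_UT, so the shRxr library stood apart for them too. Tgm2, with 64.4 in shGFP_UT, and Gbx2, with 6.62 in shCtbp2_UT, 34.3 in shRxr_UT and 24.2 in shGFP_UT, had the control between the lines.

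The RA response of the control line was measured in libraries that do not enter the untreated pair. In shGFP_RA, set against shGFP_UT, 1649 genes (13.4%) were past 2-fold higher and 872 (7.07%) past 2-fold lower. Of the 443 genes lower in shCtbp2_UT than in shRxr_UT, 263 (59.4%) were among those 1649 (15.9% of them), and 11 (2.48%) were among the 872. Of the 217 higher in shCtbp2_UT, 57 (26.3%) were among the 872 (6.54% of them) and 39 (18.0%) among the 1649. The filter on the mean of all 6 libraries lets in genes that are low untreated and high with RA. With a mean of at least 20 required over the untreated pair alone, chosen after seeing the data, 219 of 392 lower genes (55.9%) and 38 of 238 higher genes (16.0%) were past 2-fold higher with RA in shGFP, against 10.5% of the 11909 genes kept. The median RA response in shGFP, with the filter over 6 libraries, was 1.23 for the lower genes, -0.19 for the higher genes and 0.12 for all genes kept.

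**Figure D3:**
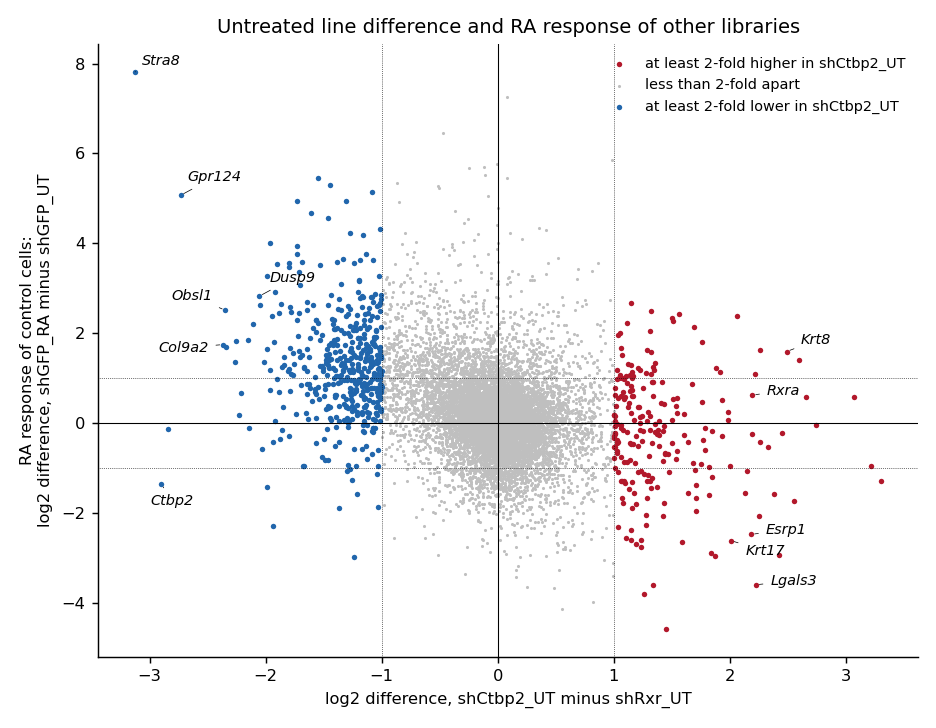
Log2 response to RA in the control line (shGFP_RA minus shGFP_UT, vertical) against the log2 difference of shCtbp2_UT minus shRxr_UT (horizontal), one point per gene, with dotted lines at 2-fold. Most genes left of -1 lie above 0 on the vertical axis, with a median of 1.23; the axes share no library.

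Among the other genes furthest lower in shCtbp2_UT, Gpr124, an adhesion receptor of brain vessel growth, had 24.0 in shCtbp2_UT and 216 in shRxr_UT (9.002-fold lower, 6.12 to 13.7). Col9a2, a type IX collagen chain, had 100.1 in shCtbp2_UT and 557 in shRxr_UT (5.56-fold lower, 4.58 to 6.81). The cytoskeletal adaptor Obsl1 had 117 in shCtbp2_UT and 634 in shRxr_UT (5.43-fold lower, 4.53 to 6.55). All 3 were lowest of the untreated lines in shCtbp2_UT and highest in shRxr_UT, since shGFP_UT had 45.9 of Gpr124, 228 of Col9a2 and 415 of Obsl1. Hapln4, a link protein of brain matrix, and its neighbour Ncan, the proteoglycan neurocan, were 2 of 15 brain matrix genes that were lower, with 0 higher and a median of -0.43. The shares over all genes kept were 3.59% lower and 1.76% higher.

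The rest of the 15 genes furthest lower included the neural adhesion gene Mdga1, the SH2 adaptor She, the homeobox gene Msx2, the unconventional myosin Myo1f, Cuedc1 and the transcripts 1700019N12Rik and Gm15055, between 5.09 and 8.87-fold lower. Evc, a ciliary gene of hedgehog signalling, had 62.9 in shCtbp2_UT and 312 in shRxr_UT, and its neighbour Evc2 had 103 in shCtbp2_UT and 384 in shRxr_UT. Crmp1, which overlaps Evc and was chosen, like Evc2, after its values were seen, was higher instead, at 489 in shCtbp2_UT and 217 in shRxr_UT; the strand setting of the counting is not given, so reads of the overlap cannot be assigned. Dusp9, a phosphatase that turns off ERK kinases, stood at 1009.9 in shCtbp2_UT and 4232 in shRxr_UT (4.19-fold lower, 3.94 to 4.46).

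Counts of signalling genes are read beside the 3.59% of all genes kept that were at least 2-fold lower in shCtbp2_UT and the 1.76% that were higher. Of 16 Notch pathway genes kept, the receptor Notch3 and the ligands Jag2 and Dll3 were at least 2-fold lower in shCtbp2_UT, 0 were higher, and the median was -0.37. Notch3 had 101 in shCtbp2_UT and 403 in shRxr_UT, with 375 in shGFP_UT, so here the shCtbp2 library was the one apart. Of 23 BMP, nodal and TGF-beta genes, 4 were lower (the ligands Bmp7 and Inhbb, the BMP antagonist Chrd and the inhibitory Smad6) and 1 was higher, the nodal inhibitor Lefty2. Of 26 FGF and Wnt genes Fgfr4 was lower, a share near that of all genes, and 0 were higher, with a median of -0.25. Of 26 cell cycle genes the G1 cyclins Ccnd1 and Ccnd2 were lower and 0 higher. Of 8 neuroectoderm genes kept Pax6 was lower, and the median was -0.37.

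Imprinted genes past 2-fold were lower in shCtbp2_UT. Over all genes kept 3.59% were lower and 1.76% higher. Of 6 Dlk1-Dio3 genes kept, Meg3, Rian and Begain were lower, 0 were higher, and the median was -0.92, or -0.37 with a pseudocount of 50. Meg3 (chr12:110779211-110809936), a long non-coding RNA expressed from the maternal copy, had 81.9 in shCtbp2_UT and 262 in shRxr_UT (3.20-fold lower, 2.54 to 4.05), and both lay under the 480.0 of shGFP_UT. Rian, a maternal non-coding RNA of the same cluster, had 114 in shCtbp2_UT and 380.0 in shRxr_UT, with 628 in shGFP_UT. Of 20 other imprinted genes, Plagl1, Peg12, Igf2 and Magel2 were lower and 0 higher, with a median of -0.24. Plagl1, a zinc finger gene, had 16.5 in shCtbp2_UT and 91.2 in shRxr_UT.

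Most pluripotency and receptor genes stayed under 2-fold, as did most genes kept, of which 1.76% were higher and 3.59% lower. Of 28 pluripotency genes 4 were higher in shCtbp2_UT (Otx2, Lefty2 and the DNA methylation genes Dnmt3b and Dnmt3l), 0 were lower, and the median was 0.03. Dnmt3l had 3018 in shCtbp2_UT and 1236 in shRxr_UT, with 2529 in shGFP_UT, and Otx2 had 1078 in shCtbp2_UT and 388 in shRxr_UT, with 772 in shGFP_UT; for both the shRxr library lay under the others. Of 14 retinoid receptor and metabolism genes only the RA-binding protein gene Crabp1 was past 2-fold, at 16.5 in shCtbp2_UT and 54.4 in shRxr_UT, with a list median near 0. Of 13 genes of other RXR partners and their targets 0 were past 2-fold in either direction, with a median of -0.24. Of 18 calcium handling genes Atp2a3, the calcium store protein Casq2 and the plasma membrane pump Atp2b4 were higher and 0 lower, with a median of -0.02. Tfap2a, a trophoblast and epidermal transcription factor, had 96.8 in shCtbp2_UT and 13.4 in shRxr_UT (7.23-fold higher, 4.27 to 13.1) and was the 1 of 7 trophoblast genes past 2-fold. Of 18 parietal endoderm and basement membrane genes kept, Krt8 was the 1 higher, 1 was lower, and the median was 0.06. Among 13 primitive endoderm regulators 1 was higher and 0 lower, with a median of 0.14. Of 23 genes of cholesterol synthesis and uptake 0 were past 2-fold in either direction, and of 23 glycolysis and hypoxia genes Ndrg1 was higher and 0 lower.

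**Figure D4:**
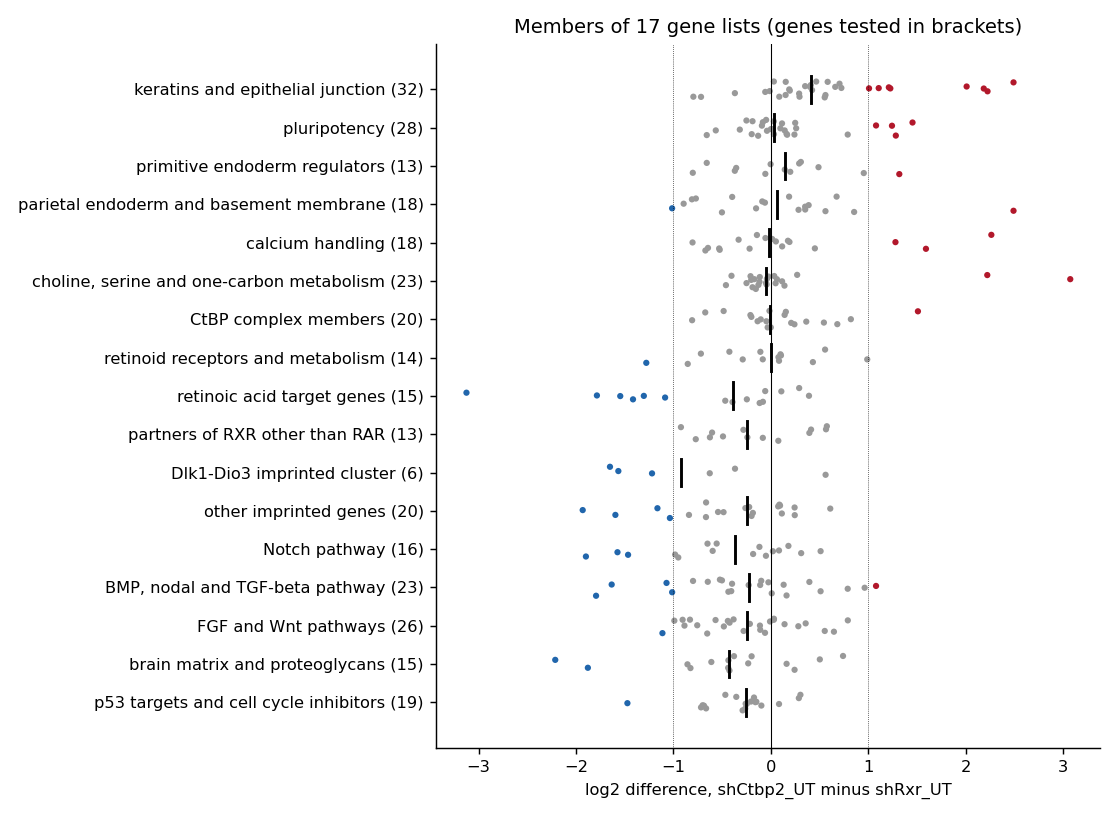
Log2 difference of shCtbp2_UT minus shRxr_UT for each kept gene of 17 lists (1 row per list, points are genes, vertical bars are list medians), with dotted lines at 2-fold. Keratin and epithelial genes have a median of 0.42 and RA target genes one of -0.39 (-0.77 with a pseudocount of 1 and -0.17 with one of 50), beside -0.03 for all genes.

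The pair with RA, shCtbp2_RA against shRxr_RA, shares no library with the untreated pair and gave the line difference in RA. It is not a repeat of the untreated pair, since differences between the lines in RA response enter it. In the RA pair 726 genes (5.89%) had at least 2-fold more RNA in shCtbp2_RA, and 2745 (22.3%) had at least 2-fold less. Of the 217 genes higher without RA, 92 were higher with RA too (42.4% of the 217 and 12.7% of the 726). Of the 443 lower genes, 125 were lower with RA too (28.2% of the 443 and 4.55% of the 2745), near the 22.3% of all genes that were lower with RA. With RA most of the other genes stood under 2-fold, 111 of the higher and 307 of the lower, and 25 genes had differences past 2-fold in opposite directions. The median difference with RA was 0.78 for the 217, -0.42 for the 443 and -0.08 for all genes.

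The RA pair followed base composition, which the untreated pair did little: across genes its difference had a rank correlation of 0.67 with GC content and -0.48 with length. With the median of each GC bin subtracted, an alternative chosen after seeing the data, 74 genes were higher and 139 lower in both pairs; beyond this the part of base composition was not tested. The genes furthest higher at both treatments were Krt8, Cyp2s1, Capn5, Gpx2, Atp2a3, Lgals3, Rxra, Grin1, Serpinb6c and Atp6v0a4. Krt8 had 2408 in shCtbp2_RA and 332 in shRxr_RA, and was 7.24-fold higher (6.45 to 8.15) there. The NMDA receptor subunit gene Grin1 had 183 in shCtbp2_UT and 33.5 in shRxr_UT, and 134 in shCtbp2_RA and 15.1 in shRxr_RA. With RA 10 of the 32 epithelial genes kept were past 2-fold higher and 2 past 2-fold lower. Over all genes kept 5.89% were higher and 22.3% lower in that pair. Esrp1 did not hold its size, at 42.6 in shCtbp2_RA and 32.1 in shRxr_RA.

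The genes furthest lower at both treatments were Ctbp2, Mtap7d2, Plagl1, Tro, Nhs, Fam171b, Ankrd44, Tll1, Chd7 and Vash2. The microtubule-associated gene Mtap7d2 had 77.8 in shCtbp2_UT and 332 in shRxr_UT, and 76.2 in shCtbp2_RA and 336 in shRxr_RA. The trophinin gene Tro had 136 in shCtbp2_UT and 519 in shRxr_UT, and 160.3 in shCtbp2_RA and 783 in shRxr_RA. Chd7, a chromatin remodeller, had 152 in shCtbp2_UT and 572 in shRxr_UT, and 242 in shCtbp2_RA and 817 in shRxr_RA. For these 3 genes each shCtbp2 library lay under both shRxr libraries; for Ankrd44 and Tll1 it did not.

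**Figure D5:**
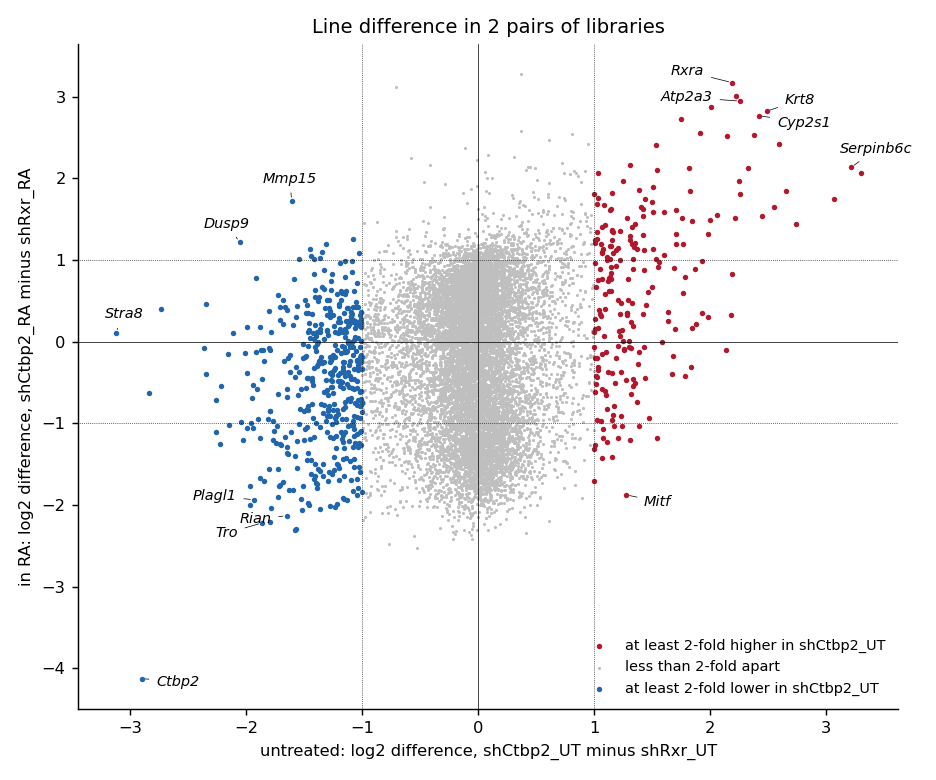
Log2 difference of shCtbp2 minus shRxr with RA (vertical) against the same difference untreated (horizontal), one point per gene, with dotted lines at 2-fold; the pairs share no library. Ctbp2 lies low in both, Krt8, Atp2a3 and Rxra lie high in both, and Dusp9 and Stra8 lie low untreated only.

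A test across genes was possible with treatment in place of replicates. The limma trend model, with line and treatment as terms and the contrast shCtbp2 minus shRxr over both treatments, called 19 genes higher (0.154%) and 8 lower (0.0649%) at a Benjamini-Hochberg adjusted p under 0.05, and 1403 had an unadjusted p under 0.05, of 12332. The shGFP libraries entered this fit only through the treatment effect and the residual spread. All 27 were past 2-fold in the same direction in both pairs, which the fit favours. Its contrast is the mean of the 2 pair differences and their disagreement enters its residual, so this is no separate check. The lower genes were Ctbp2, Tro, Mtap7d2, Plagl1, Rian, Nhs, Meg3 and Fam171b. The higher genes were Atp2a3, Rxra, Cyp2s1, Krt8, Serpinb6c, Capn5, Lgals3, Atp6v0a4, Gpx2, Krt17, Grin1, Anxa2, the atrial myosin light chain Myl7, Dmgdh, the mitochondrial creatine kinase Ckmt1, Plac8, Klk11, Emp2 and the secretory granule gene Chga. In limma's fit Ctbp2 had a log2 difference of -3.51 ± 0.36 (SE; adjusted p = 0.0024), Rxra 2.68 ± 0.35 (adjusted p = 0.012) and Meg3 -1.93 ± 0.34 (adjusted p = 0.04). Meg3 lost limma's call without the shGFP libraries (adjusted p = 0.088), with voom (0.065), with a pseudocount of 50 (0.066), with a mean of at least 100 (0.099), with no filter (0.22), without shRxr_RA (0.073) and without shCtbp2_RA (0.34). Without the shGFP libraries Ctbp2 (adjusted p = 1.3e-06), Rxra (0.0016), Krt8 (0.0023) and Atp2a3 (0.0025) still passed limma's test. That fit had 1 residual degree of freedom and infinite prior ones, so the spread of each gene was set by the trend over all genes. Its p-values cannot be read as firmer than those of the main fit. The SE of Ctbp2 was 0.54 there, against 0.36 in the main fit.

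Krt8 rose by 2.65 ± 0.38 (SE; adjusted p = 0.016) and Atp2a3 by 2.60 ± 0.33 (adjusted p = 0.012) in limma's fit. Stra8, furthest lower without RA, did not pass limma's test over both treatments (-1.51 ± 0.62, adjusted p = 0.41), nor did Ctbp1 (adjusted p = 0.61) or Rxrb (adjusted p = 0.51). The calls moved with single libraries: without shCtbp2_RA limma called 0 genes, with 781 at an unadjusted p under 0.05, without shRxr_RA it called 32 higher and 53 lower, without shCtbp2_UT 485 higher and 1780 lower, and without shRxr_UT 104 higher and 452 lower. The residual behind these p-values holds differences between the 3 lines in RA response, measured with single libraries. A gene whose line difference changed with RA, such as Stra8, thus had a wide SE. The p-values do not measure a spread between cultures of a line, and the labels name no separate cultures.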

How the data were processed

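Per the labels' protocols, total RNA of F9 cells went through Illumina's TruSeq library preparation and was read on a HiSeq 2000 instrument. The submitters' processing notes name TopHat 1.4, HTSeq and the build mm9; how strand was handled is not stated by them. The deposited values are log2, which the authors took of reads scaled to 10000000 per library plus 1. The values themselves show this: 100% gave whole reads within 1e-06 of a read, and 25 symbols turned into dates were restored. Levels were unlogged, a pseudocount of 10 was added for log2 differences, and a mean of at least 20 was required.

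Size was the rule for the untreated pair, at least 2-fold. Limma 3.58.1 (R 4.3.3, trend, 2 residual and 11.2 prior degrees of freedom) tested line with treatment as a term, adjusted by Benjamini-Hochberg over 12332 genes. The script was tested on data with known changes, whose spread was set smaller than that of these libraries, so this gives no power for the real fit.

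Named were the targets, the 15 genes furthest apart in each direction with a mean of at least 50, the 10 furthest at both treatments in each direction, limma's calls, the 8 largest opposite ones and list members past 2-fold. The comparison, the members and the 30 gene lists were chosen with earlier results of these data known. Alternatives were other pseudocounts, filters, scalings, a voom fit and fits without single libraries; a GC correction was added after seeing the data. Promoters came from RefSeq on another build than mm9, so they were matched by symbol.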

Additional observations from a re-analysis of the deposited data

Results flagged for a closer look

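In 25 genes the line difference was at least 2-fold in opposite directions in the untreated and the RA pair. Of the 217 genes higher untreated, 14 were lower with RA, beside 22.3% of all genes kept. Of the 443 lower untreated, 11 were higher with RA, beside 5.89% of all genes kept. Both shares lie under those of all genes kept. With 1 library per group the difference between the pairs was not tested for any of them. The 8 whose smaller difference was largest are given with the RA minus the untreated log2 difference of shCtbp2 minus shRxr.

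Mmp15, a membrane-bound matrix protease, had 43.0 normalised reads in shCtbp2_UT and 151 in shRxr_UT, and 1766 in shCtbp2_RA and 527 in shRxr_RA, a change of 3.33. Dusp9 had 22191 in shCtbp2_RA and 9527 in shRxr_RA against the untreated values above, a change of 3.28. Lgals1, the galectin-1 gene, had 136 in shCtbp2_UT and 351 in shRxr_UT, and 1658 in shCtbp2_RA and 717 in shRxr_RA, a change of 2.51. These 3 genes were lower in the shCtbp2 line without RA and higher with it.

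Mitf, a transcription factor of pigment cells, had 476 in shCtbp2_UT and 191 in shRxr_UT, and 24.7 in shCtbp2_RA and 118 in shRxr_RA, a change of -3.15. Prdm1, the repressor Blimp1, had 216 in shCtbp2_UT and 91.2 in shRxr_UT, and 47.5 in shCtbp2_RA and 144 in shRxr_RA, a change of -2.58. The change was -2.72 in Ccdc141, -2.52 in the kinase gene Sgk3 and -2.38 in the hydrolase gene Nudt12, all higher in the shCtbp2 line without RA and lower with it. After GC bin medians were subtracted 11 genes were opposite past 2-fold.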

How the results depend on the processing

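No paired analysis was possible because each group has 1 library and its number is only a name. No named gene whose untreated difference was rerun changed sign with the other pseudocounts or scalings. A pseudocount cannot turn a sign, and the scalings moved single genes little, Ctbp2 from -2.899 to -2.866 with median-of-ratios scaling. This is therefore no check of direction, and not every list member named above was rerun. Some list medians near 0 did change sign. Among them, with median-of-ratios scaling, calcium handling went to 0.012, cell cycle to 0.005, retinoid receptors and metabolism to 0.008, and targets and paralogs to 0.016. Counts of genes past 2-fold moved with the pseudocount: with 1 in place of 10, 724 were lower untreated, 205 lower in both pairs, 61 opposite, and 467 of the lower genes were higher with RA in shGFP. With 50 there were 99 higher and 106 lower untreated (48.3% higher, against 32.9% with 10), 33 higher and 22 lower in both pairs, 5 opposite, and 55 of the lower genes higher with RA in shGFP. With a mean of at least 100 the counts were 107 higher and 235 lower untreated, and 47 higher and 61 lower in both pairs. Chosen after seeing the data, GC bin medians subtracted left 11 opposite, and 164 lower genes were higher with RA in shGFP with a mean of at least 100, and 74 with such a mean over the untreated pair.

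Limma's 19 higher and 8 lower genes became 5 and 1 with a mean of at least 100, 0 and 1 with no filter, 42 and 23 with equal upper quartiles, and 41 and 23 with median-of-ratios scaling; both scalings kept all 27. The lower genes were 3 with a pseudocount of 50, 3 with voom and 3 without the shGFP libraries. Leaving out 1 library gave 0 to 485 higher and 0 to 1780 lower: 0 and 0 without shCtbp2_RA, 32 and 53 without shRxr_RA, 485 and 1780 without shCtbp2_UT, and 104 and 452 without shRxr_UT. The lone library of an arm is then assumed to vary like the other groups. The cause was not tested. Equal upper quartiles put the median of all genes in the RA pair at 0.12, against -0.08. Named genes moved by more than their counting interval with a pseudocount of 50 in 31 cases, by its construction. List medians have no such interval and were judged by a fixed shift. By that rule 9 moved with a pseudocount of 50 and 5 with a pseudocount of 1. Depth limits genes at a few reads, where 3 reads are up to 3.01 normalised reads.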

Other observations

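Values of 3 genes of antigen presentation are given, picked because they were lower in shCtbp2_UT. The class I light chain gene B2m had 12.4 normalised reads in shCtbp2_UT and 58.6 in shRxr_UT, with 51.5 in shGFP_UT. The class I gene H2-K1 had 207 in shCtbp2_UT and 503 in shRxr_UT, with 455 in shGFP_UT. The peptide transporter gene Tap1 had 44.7 in shCtbp2_UT and 105 in shRxr_UT, with 98.3 in shGFP_UT. All 3 were lowest of the untreated lines in shCtbp2_UT and higher in shGFP_RA than in shGFP_UT, at 219.9 for B2m, 1050.1 for H2-K1 and 358 for Tap1. With RA, H2-K1 had 666 in shCtbp2_RA and 582 in shRxr_RA, and none of the 3 passed limma's test over both treatments (adjusted p = 0.2, 0.53 and 0.6). H2 genes are a family of close copies whose reads the counting could split, and of 12 interferon response genes kept Tap1 was the 1 past 2-fold, with a list median of 0.01.

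Among the 660 genes past 2-fold, 54 neighbouring pairs lay within 50000 bases of each other on mm9, and 48 of them differed in 1 direction. Without overlapping genes and pairs of 1 symbol, 45 of 50 pairs (90.0%) did, beside 55.8% over all pairs of these genes; close copies such as H2-Q6 and H2-Q7 are among them. The anterior-posterior patterning genes Hoxd9 and Hoxd8 were such a pair. Hoxd9 had 43.8 in shCtbp2_UT and 5.86 in shRxr_UT, with 2.42 in shGFP_UT. Hoxd8 had 43.8 in shCtbp2_UT and 6.70 in shRxr_UT, with 1.61 in shGFP_UT. The surface protein genes Ly6a and Ly6c1 were another: Ly6a had 610.4 in shCtbp2_UT and 152 in shRxr_UT, with 127 in shGFP_UT, and Ly6c1 had 63.7 in shCtbp2_UT and 14.2 in shRxr_UT, with 12.1 in shGFP_UT. For all 4 genes the shCtbp2 library lay above the others.

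Chromosome medians of the untreated difference stayed between -0.095 on chromosome 14 and 0.008 on chromosome X. In the RA pair they spread from -0.75 on chromosome X to 0.27 on chromosome 7. The difference in that pair had a rank correlation of 0.67 with GC content across genes. The part of base composition in these chromosome medians was not tested.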
